A study of Mus musculus with 2 samples.

Results

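Semaphorins and plexins, a family of guidance ligands and their receptors, were followed across the gated cell classes of 2 mouse tumor endothelial libraries. The 9 genes, of 31055 counted, were chosen by name, with earlier results of these data known. They were the secreted ligands Sema3g, Sema3f and Sema3c, the membrane-bound ligands Sema6a, Sema6d and Sema7a, and the receptors Plxnd1, Plxna2 and Plxnb2. All 9 were present in both libraries, with 266 (Sema3g in PyMT) to 8662 (Plxnd1 in PyMT) unique molecular identifiers (UMIs, each standing for 1 captured transcript) per gene and library, except Sema3c, which had 913 in KPC and 27 in PyMT.

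The study profiled endothelial cells from KPC (pancreatic) and PyMT (mammary) tumors by droplet single-cell RNA sequencing (scRNAseq), with 1 library per tumor model and no treatment. Each tumor was grown from 100000 implanted cells of a cancer line in wild-type, 6-week-old female C57BL6 mice and was taken 10 days later. Both models are therefore transplanted lines in young animals rather than tumors that arose on their own. The study describes them as orthotopic, that is, grown in the organ of origin. The number of mice behind each library is not given in the sources used here. Cells carrying CD45, EpCAM, Ter119, podoplanin or Annexin V were removed before the sort, so blood cells, epithelial tumor cells and many lymphatic cells were depleted by design.

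The KPC library held 10236 cell barcodes and 44441942 UMIs, of which 9591 barcodes had at least 500 genes and under 10% mitochondrial UMIs. The PyMT library held 12464 barcodes and 55547926 UMIs, of which 11744 passed. The kept cells had a median of 3141 UMIs in KPC and 3978 in PyMT, and 170 barcode sequences occurred in both libraries. Cells were placed in the first class whose gate they met: tumor (Krt8 and Krt18, 5 UMIs or more together), fibroblast (Col1a1 and Col1a2, 10), lymphatic (Mmrn1 and Prox1, 3), pericyte (Notch3 and Higd1b, 2), venule (Ackr1 and Selp, 3), artery (Gja5 and Gja4, 2), tip (Apln and Angpt2, 3), capillary (Car4 and Cd300lg, 2) and other. The KPC library gave 640 venule, 633 artery, 1275 tip, 1187 capillary, 3698 other and 802 lymphatic cells. The PyMT library gave 360, 701, 1954, 2434, 5228 and 633 cells of those classes.

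Markers outside the gates were checked before the classes were used. Among the 5 blood endothelial classes, 8 of 8 venule markers were highest in the venule class in both libraries, and artery markers were highest in the artery class for 8 of 8 in KPC and 6 of 8 in PyMT. The tip label held for 6 of 7 markers in KPC but 3 of 7 in PyMT, and the capillary label for 5 of 6 in KPC but 1 of 6 in PyMT. The PyMT capillary class is therefore best read as cells with Car4 and Cd300lg UMIs. All 5 of 5 lymphatic markers peaked in the lymphatic class of both libraries. The tumor class held its 5 tumor-cell markers at a summed 4464 CPM in KPC but 43.1 CPM in PyMT, where it is best read as cells with Krt8 and Krt18 UMIs. In PyMT, 53.1% of venule cells, 32.1% of artery cells and 39.8% of tip cells met more than 1 gate, against 22.3%, 22.9% and 13.8% in KPC. The same held for 41.4% of lymphatic cells in KPC and 36.3% in PyMT, and for 49.6% and 66.7% of pericytes. The immune marker list, which the sort should remove, summed to 252 CPM (a gene's counts scaled to 1000000 UMIs of the class) in the KPC other class and 42.3 CPM in the PyMT other class.

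Semaphorins are extracellular cues, first known from axon guidance, that steer migrating cells and growing vessels. Class 3 members are secreted and act mostly through the neuropilins Nrp1 and Nrp2 paired with a plexin, class 6 members span the membrane and bind A-type plexins, and Sema7a is held at the surface by a lipid anchor and binds plexin C1 and integrins. Plexins carry a GTPase-activating domain that, once a ligand binds, lowers Ras-family activity and loosens integrin adhesion. In endothelium, Plxnd1 is the receptor through which Sema3e restrains sprouting, and Sema3f is known as a repellent for endothelial cells. The membrane-spanning Plxnb2 is a receptor for class 4 semaphorins.

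The genes at least 2-fold apart between the artery, capillary and venule classes in both libraries were Sema3g, Sema7a and Plxnb2, and the 250 bases before each RefSeq start (GRCm38.p6) are shown to give their sequence context. Capitals mark a match to TATAA (TATA) or to TGGGAA (the RBPJ motif of the Notch pathway), searched on both strands together with AGGTCA (the half-site of NR2F nuclear receptors).
Sema3g, chr14:31217623-31217872, plus strand: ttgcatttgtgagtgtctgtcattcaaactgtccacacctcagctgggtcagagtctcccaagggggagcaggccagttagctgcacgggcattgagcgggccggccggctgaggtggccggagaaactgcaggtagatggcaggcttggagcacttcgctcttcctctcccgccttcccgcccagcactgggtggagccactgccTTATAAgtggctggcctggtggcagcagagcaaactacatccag
Sema7a, chr9:57939862-57940111, plus strand: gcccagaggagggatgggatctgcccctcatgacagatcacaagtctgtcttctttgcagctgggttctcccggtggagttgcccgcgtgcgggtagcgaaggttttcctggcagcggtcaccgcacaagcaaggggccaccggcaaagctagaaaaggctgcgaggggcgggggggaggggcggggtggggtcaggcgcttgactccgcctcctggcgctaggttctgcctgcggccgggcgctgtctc
Plxnb2, chr15:89180789-89181038, minus strand: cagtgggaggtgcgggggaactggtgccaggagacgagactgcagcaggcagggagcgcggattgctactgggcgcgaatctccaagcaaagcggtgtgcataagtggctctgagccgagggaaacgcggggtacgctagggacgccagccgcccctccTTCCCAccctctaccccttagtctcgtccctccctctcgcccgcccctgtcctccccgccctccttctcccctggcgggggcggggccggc
The Sema3g window held TATAA on both strands, in 1 overlapping stretch, close to its start. The Sema7a window held none of the motifs, and the Plxnb2 window held 1 RBPJ match on its reverse strand. The window of another RefSeq start of Plxnb2, chr15:89173952-89174201 on the minus strand, held 1 AGGTCA match and neither of the other motifs. Among the 32851 promoters of the same length in the RefSeq table, 22.8% held TATAA, 21.6% TGGGAA and 14.0% AGGTCA, so these matches are frequent. GC content was 60.4% for Sema3g, 66.4% for Sema7a and 69.2% for Plxnb2, against a median of 52.4% over all promoters. Of the 9 genes, 7 had an entry in that table.

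**Figure D1:**
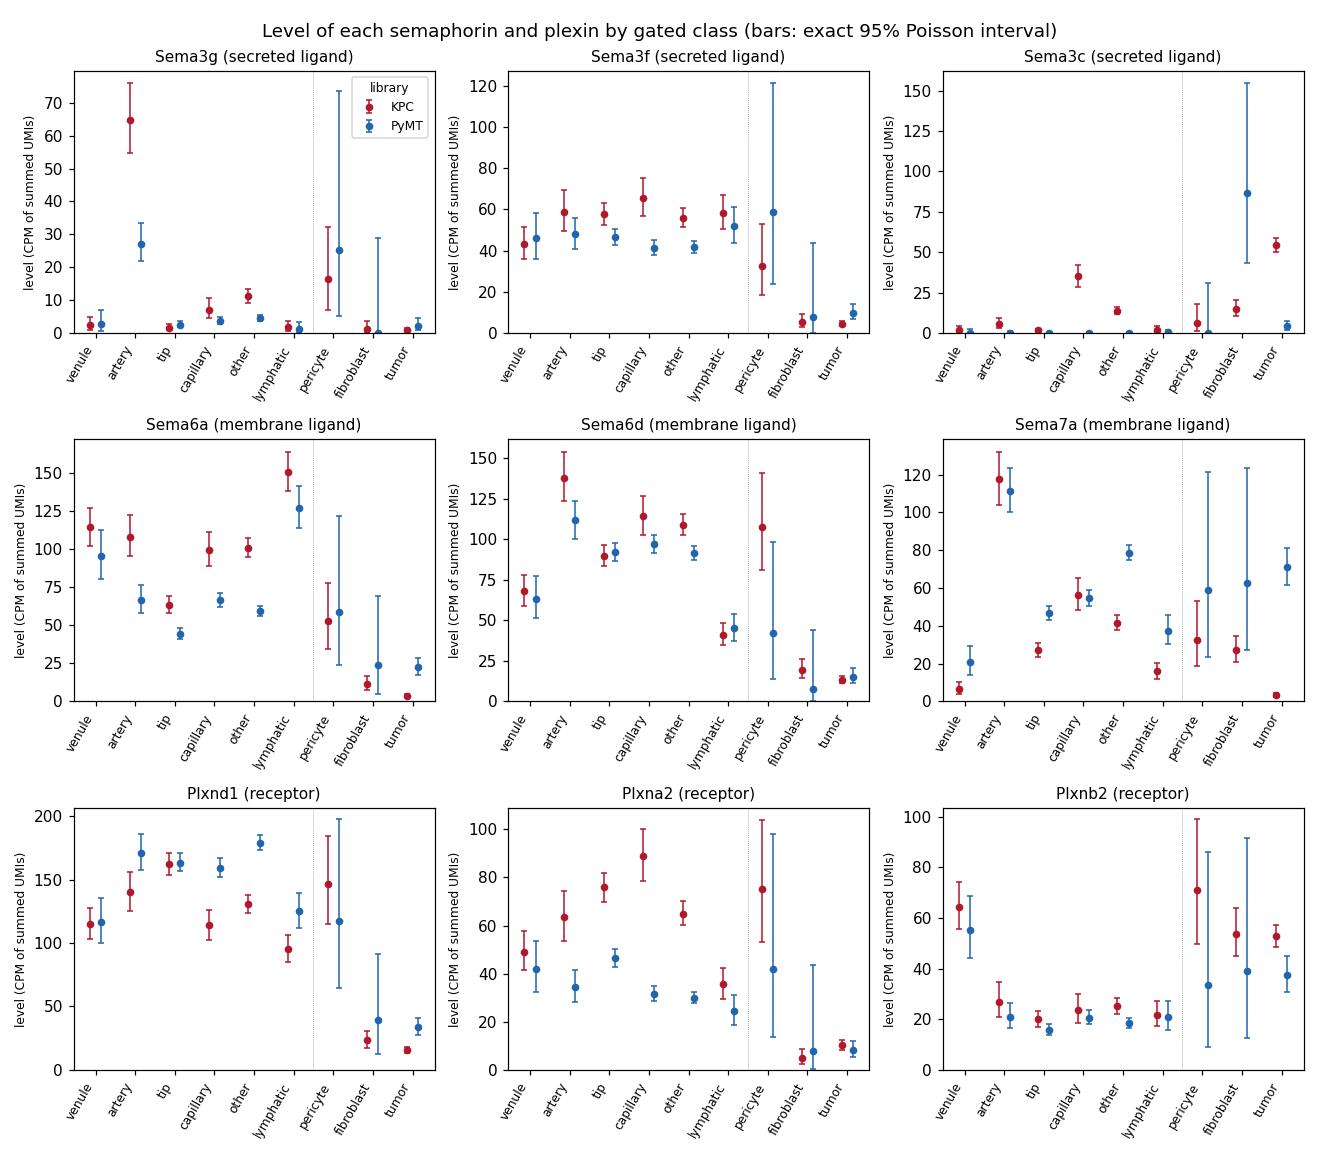
Level (CPM of summed UMIs, y axis) of each of the 9 genes in the 9 gated classes (x axis) of the KPC (red) and PyMT (blue) libraries, with exact 95% Poisson intervals as bars and a dotted line between endothelial classes and the pericyte, fibroblast and tumor classes. Among the endothelial classes, Sema3g stands out in artery cells at 64.7 and 27.1 CPM, and Plxnb2 in venule cells at 64.5 and 55.3 CPM.

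Levels are given as CPM of the UMIs summed over a class, with exact 95% Poisson intervals. With 1 library per tumor model there is no replicate check and no test, and all intervals cover counting error only. Differences are log2 ratios of CPM between classes of the same library, with exact 95% intervals in square brackets. A gene counts as past the fold when the ratio is at least 2-fold in the same direction in both libraries and the classes compared hold at least 20 of its UMIs together in each library. In summed cells, a lower share of expressing cells and less RNA per cell cannot be told apart.

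Among the secreted ligands, Sema3g was an artery-class gene in both tumors. The gene (ENSMUSG00000021904, chr14:31217860-31230352, plus strand, mm10) was at 64.7 CPM (54.8 to 75.9, 151 UMIs) in KPC artery cells. It was at 11.2 CPM in other, 7.06 in capillary, 2.39 in venule, 1.70 in lymphatic and 1.58 in tip cells of that library. In PyMT it was at 27.1 CPM (21.8 to 33.4, 89 UMIs) in artery cells, 4.46 in other, 3.58 in capillary, 2.67 in venule, 2.45 in tip and 1.12 in lymphatic cells. The artery interval lay above that of the next endothelial class in both libraries, while the lower 5 classes overlapped with their neighbours in that order. The artery over capillary log2 ratio was 3.20 [2.55, 3.91] in KPC and 2.92 [2.38, 3.49] in PyMT. The venule over artery log2 ratio was -4.76 [-6.10, -3.68] in KPC and -3.35 [-5.25, -1.94] in PyMT, on 7 and 4 venule UMIs.

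Sema3g was then split by artery gate UMIs, among the cells that no earlier gate had taken. The bins of 2 UMIs or more are the artery class itself, so this describes the same contrast in finer steps and is no separate support. In KPC it went from 5.61 CPM in cells with no Gja5 or Gja4 UMI to 21.4 CPM at 1 UMI, 33.2 at 2, 67.2 at 3 to 4, 95.3 at 5 to 8 and 76.4 at 9 or more. In PyMT the same bins gave 3.20, 9.28, 11.3, 15.2, 28.4 and 62.4 CPM. Both libraries therefore already showed more Sema3g just below the gate threshold of 2 UMIs than in cells with none, and most at 5 UMIs or more. With cells meeting more than 1 gate left out, Sema3g was at 83.6 CPM in KPC artery cells and 35.3 CPM in PyMT artery cells, with 1 UMI left in the venule class of each library. Thinned to 2000 UMIs per cell, 9.16% of KPC and 5.56% of PyMT artery cells had a Sema3g UMI (17.9% and 10.4% unthinned, 218 and 89 shallower cells left out). The tumor class gave 0.127% and 0.531% (0.882% and 1.32% unthinned), and the pericyte class 5.32% and 4%. Sema3g in the pericyte class was at 16.3 CPM (8 UMIs) in KPC and 25.2 CPM (3 UMIs) in PyMT. That class also held the 5 endothelial markers at a summed 2432 CPM in KPC and 3126 CPM in PyMT. Whether pericytes themselves held Sema3g was not tested. Median depth was 2736 and 3861 UMIs in artery cells, and 12688.5 and 6939 in the tumor class.

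Rgs5, a pericyte marker, was at 131.6 CPM in the KPC artery class and at 4125 CPM in the pericyte class. At the pericyte class's ratio of Sema3g to Rgs5, that Rgs5 would go with 1.21 Sema3g UMIs, against the 151 counted. In PyMT artery cells the same reckoning gave 0.633 Sema3g UMIs, against 89. The ratio rests on 8 Sema3g UMIs in KPC and 3 in PyMT pericytes, a class in which many cells met more than 1 gate. Where the Rgs5 of artery cells came from was not tested.

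Sema3f (ENSMUSG00000034684, chr9:107681500-107710475, minus strand) was the most even of the ligands. It was at 43.0 (venule), 58.7 (artery), 57.5 (tip), 65.5 (capillary), 55.8 (other) and 58.2 CPM (lymphatic) in KPC. In PyMT the same classes gave 46.0, 47.9, 46.5, 41.4, 41.8 and 51.7 CPM. The highest class was 1.52-fold above the lowest in KPC and 1.25-fold in PyMT, and the intervals of neighbouring classes were separate at 1 step in KPC, with venule cells below other cells, the next in order, and at none in PyMT. In the tumor class it was at 4.41 CPM in KPC and 9.85 CPM in PyMT, and in the pericyte class at 32.6 CPM (16 UMIs) and 58.8 CPM (7 UMIs).

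Sema3c (ENSMUSG00000028780, chr5:17574281-17730268, plus strand), a class 3 ligand that signals through neuropilins and plexin D1, differed between the libraries more than any other of the 9 genes. In KPC it was at 35.0 CPM (28.7 to 42.2, 109 UMIs) in capillary cells, 13.7 in other, 5.57 in artery, 2.05 in venule, 1.98 in lymphatic and 1.58 in tip cells. In PyMT no Sema3c UMI was found in venule, artery, tip or capillary cells, 3 were found in other and 1 in lymphatic cells. The count of 0 in the PyMT capillary class had an exact upper bound of 0.314 CPM. The exact interval of the KPC over PyMT log2 ratio in capillary cells had a lower bound of 6.77. KPC capillary cells stood above every other KPC endothelial class, with the capillary, other and artery intervals all separate.

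The KPC level was also split by capillary gate UMIs, where the bins of 2 or more are the capillary class itself. Among KPC capillary and other cells, Sema3c was at 9.57 CPM with no Car4 or Cd300lg UMI, and at 23.8, 24.1, 43.6 and 46.8 CPM in the bins of 1, 2, 3 to 4 and 5 to 8 UMIs. The KPC tumor class itself held Sema3c at 54.2 CPM and the fibroblast class at 14.8 CPM, so RNA from those cells was measured too. Krt19, a tumor-cell keratin, was at 12.1 to 17.2 CPM in all 6 KPC endothelial classes and 2789 CPM in the tumor class. At the tumor class's ratio of Sema3c to Krt19, the 46 Krt19 UMIs of capillary cells would go with 0.894 Sema3c UMIs, against 109 counted. Carried RNA was not tested. After thinning, 23 of 518 KPC capillary cells (4.44%) and 1 of 415 KPC artery cells (0.241%) had a Sema3c UMI. Thinning left out 669 and 218 shallower cells of these classes, and the unthinned shares were 7.25% and 1.74%. In PyMT, 11 of the 27 Sema3c UMIs lay in 4 of the 28 fibroblast cells, at 86.4 CPM for that class.

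Among the membrane-bound ligands, Sema6a (ENSMUSG00000019647, on chromosome 18), a ligand of A-type plexins, was highest in lymphatic and lowest in tip cells of both libraries. It was at 150 CPM (lymphatic), 114 (venule), 108 (artery), 101 (other), 99.5 (capillary) and 63.3 CPM (tip) in KPC. In PyMT the levels were 127, 95.3, 66.8, 59.2, 66.4 and 44.4 CPM in that order of classes. Lymphatic cells were separate from venule cells, and tip cells from the next lowest class, in both libraries. The tip over capillary log2 ratio was -0.65 [-0.86, -0.45] in KPC and -0.58 [-0.74, -0.42] in PyMT, short of 2-fold. Against the tip gate, Sema6a went from 107 CPM in KPC cells with no Apln or Angpt2 UMI to 56.1 CPM in cells with 9 or more, and from 65.4 to 34.4 CPM in PyMT. Cells with 9 or more are part of the tip class, so this describes the same contrast in finer steps.

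Sema6d (ENSMUSG00000027200, chr2:124089969-124667770, plus strand), a class 6 ligand of plexin A1, was lowest in lymphatic cells, and artery and capillary cells led the order without separate intervals. In KPC it was at 138 CPM in artery, 114 in capillary, 109 in other, 89.6 in tip, 68.0 in venule and 41.0 CPM in lymphatic cells. In PyMT it was at 112, 97.1, 91.6, 92.1, 63.3 and 45.0 CPM in the same classes. Venule and lymphatic cells were thus the low classes in both tumors. With cells of more than 1 gate left out, PyMT artery cells were at 95.1 CPM and capillary cells at 97.1 CPM, the opposite order. The lymphatic over capillary log2 ratio was -1.48 [-1.77, -1.20] in KPC and -1.11 [-1.39, -0.84] in PyMT, past the fold. The venule over artery ratio was -1.02 in KPC, beyond 2-fold, and -0.82 in PyMT, short of it, so it did not count as past the fold. Over 9 alternative settings that ratio ranged from -1.384 to -0.986 in KPC and from -1.005 to -0.663 in PyMT, crossing 2-fold in each.

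Sema7a (ENSMUSG00000038264, chr9:57940112-57962865, plus strand) had a steep gradient from artery to venule cells. In KPC it was at 117 CPM (104 to 132, 274 UMIs) in artery, 56.5 in capillary, 41.6 in other, 27.2 in tip, 15.8 in lymphatic and 6.49 CPM (19 UMIs) in venule cells, and every step of that order had separate intervals. In PyMT it was at 112 CPM (366 UMIs) in artery, 78.8 in other, 54.5 in capillary, 46.8 in tip, 37.5 in lymphatic and 20.7 CPM (31 UMIs) in venule cells. Artery cells were highest and venule cells lowest in both. The venule over artery log2 ratio was -4.18 [-4.93, -3.51] in KPC and -2.43 [-3.01, -1.90] in PyMT, and venule over capillary was -3.12 [-3.89, -2.44] and -1.40 [-1.97, -0.88]. The artery over capillary ratio was close to the threshold, at 1.06 [0.78, 1.34] and 1.03 [0.84, 1.22], and under 3 alternative settings it fell below 2-fold in 1 of the libraries.

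Split by the UMIs of the artery and venule gates, Sema7a went in opposite directions. The bins at or above a gate's threshold are that class itself, so this describes the class contrast in finer steps. It was at 35.4 CPM in KPC cells with no Gja5 or Gja4 UMI and 147 CPM in cells with 9 or more, and at 61.7 and 132 CPM in PyMT. With rising Ackr1 and Selp UMIs it was at 50.3, 27.1, 13.1, 7.75, 6.59 and 4.67 CPM in the KPC bins of 0, 1, 2, 3 to 4, 5 to 8 and 9 or more. The PyMT bins gave 69.9, 33.1, 23.6, 16.4, 21.2 and 30.1 CPM, so there the lowest level was in the bin of 3 to 4 UMIs. Without cells of more than 1 gate, the venule class was at 6.86 CPM in KPC and 13.7 CPM in PyMT. After thinning, 19.8% and 20.4% of artery cells had a Sema7a UMI in KPC and PyMT, against 0.375% and 1.75% of venule cells (31.0% and 35.9%, and 2.66% and 6.67%, unthinned). The thinned tumor class gave 1.40% in KPC and 13.8% in PyMT, the latter a class with Sema7a of its own at 71.0 CPM against 3.40 CPM in KPC.

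**Figure D2:**
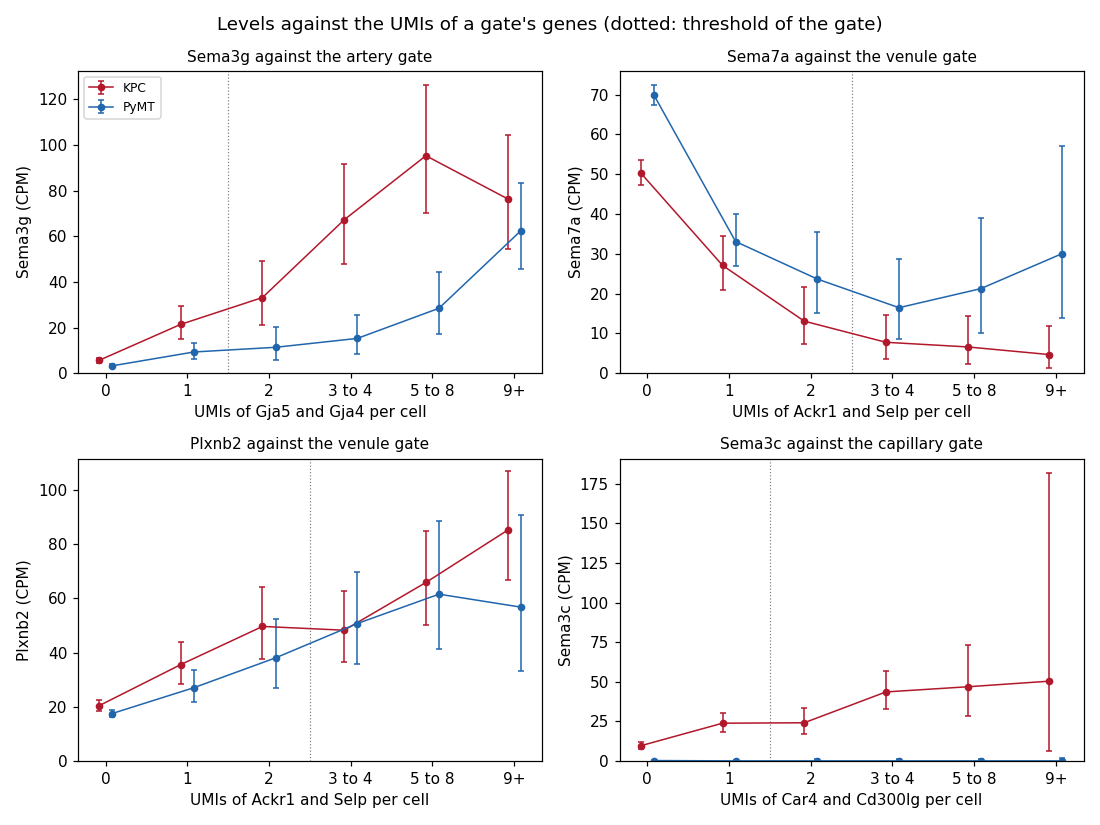
Level (CPM, y axis) of Sema3g by Gja5 and Gja4 UMIs per cell, Sema7a and Plxnb2 by Ackr1 and Selp UMIs, and Sema3c by Car4 and Cd300lg UMIs (x axes) in the cells that no earlier gate had taken in KPC (red) and PyMT (blue), with exact 95% Poisson intervals and the gate threshold as a dotted line. Bins to the right of the dotted line are the gated class itself. Sema3g and Plxnb2 are higher in cells with more gate UMIs in both libraries, and Sema7a is lower in cells with venule gate UMIs than in cells with none. Sema3c is higher in cells with its gate's UMIs in KPC, with no more than 3 UMIs per bin in PyMT.

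Among the receptors, Plxnb2 (ENSMUSG00000036606, chr15:89155549-89180788, minus strand) was the venule-class gene. It was at 64.5 CPM (55.7 to 74.4, 189 UMIs) in KPC venule cells and between 20.0 (tip) and 27.0 CPM (artery) in the other 5 endothelial classes. In PyMT it was at 55.3 CPM (44.1 to 68.6, 83 UMIs) in venule cells and between 15.9 (tip) and 21.0 CPM (artery) elsewhere. The other 5 classes overlapped with their neighbours in both libraries. The venule over capillary log2 ratio was 1.44 [1.05, 1.85] in KPC and 1.42 [1.04, 1.78] in PyMT, and venule over artery was 1.26 [0.84, 1.69] and 1.40 [0.92, 1.88].

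By Ackr1 and Selp UMIs, Plxnb2 was at 20.4, 35.6, 49.6, 48.2, 65.9 and 85.2 CPM in KPC and at 17.5, 27.0, 38.0, 50.7, 61.6 and 56.8 CPM in PyMT, over the bins of 0, 1, 2, 3 to 4, 5 to 8 and 9 or more. The level was therefore above that of cells with none already at 1 gate UMI, while the bins of 3 or more are the venule class itself. It was 72.3 CPM in KPC and 62.6 CPM in PyMT venule cells that met no other gate. After thinning, 13.3% and 8.77% of venule cells had a Plxnb2 UMI, against 4.58% and 3.59% of artery cells (24.2% and 19.4%, and 9.005% and 9.27%, unthinned). Plxnb2 was not an endothelial gene alone, with 71.2 CPM in KPC pericytes, 53.8 CPM in KPC fibroblasts and 52.8 CPM in the KPC tumor class. At the tumor class's ratio of Plxnb2 to Krt19, the Krt19 of KPC venule cells would go with 0.851 Plxnb2 UMIs, against 189 counted. Carried RNA was not tested.

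Plxnd1 (ENSMUSG00000030123, chr6:115954811-115995005, minus strand), the Sema3e receptor, varied little between vessel classes. It was at 115 (venule), 140 (artery), 162 (tip), 114 (capillary), 131 (other) and 95.3 CPM (lymphatic) in KPC, and no neighbours in the order of levels had separate intervals. Plxnd1 there was separate between some classes further apart, with tip cells (153 to 171 CPM) above capillary cells (102 to 126 CPM). In PyMT it was at 117, 171, 163, 159, 179 and 125 CPM, and lymphatic and venule cells lay below the other classes by separate intervals. The highest class was 1.70-fold above the lowest in KPC and 1.53-fold in PyMT. The tip over capillary log2 ratio was 0.51 [0.34, 0.68] in KPC and 0.04 [-0.06, 0.13] in PyMT. The tumor class held 15.4 and 34.0 CPM.

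Plxna2 (ENSMUSG00000026640, chr1:194618218-194816869, plus strand), a receptor for Sema6a and, with neuropilins, for class 3 ligands, had a different order in each tumor. In KPC it was highest in capillary cells at 88.9 CPM, followed by tip at 75.8, other at 65.0, artery at 63.5, venule at 49.2 and lymphatic cells at 35.6 CPM. In PyMT it was highest in tip cells at 46.5 CPM, followed by venule at 42.0, artery at 34.5, capillary at 31.7, other at 30.0 and lymphatic cells at 24.4 CPM. No neighbours in either order had separate intervals, and lymphatic cells were lowest in both. Classes further apart in the order could be separate. KPC capillary cells (78.7 to 100 CPM) lay above KPC other cells (60.1 to 70.2 CPM). PyMT tip cells (42.8 to 50.4 CPM) lay above PyMT capillary cells (28.6 to 35.1 CPM). The tip over capillary log2 ratio was -0.23 [-0.44, -0.02] in KPC and 0.55 [0.36, 0.74] in PyMT.

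**Figure D3:**
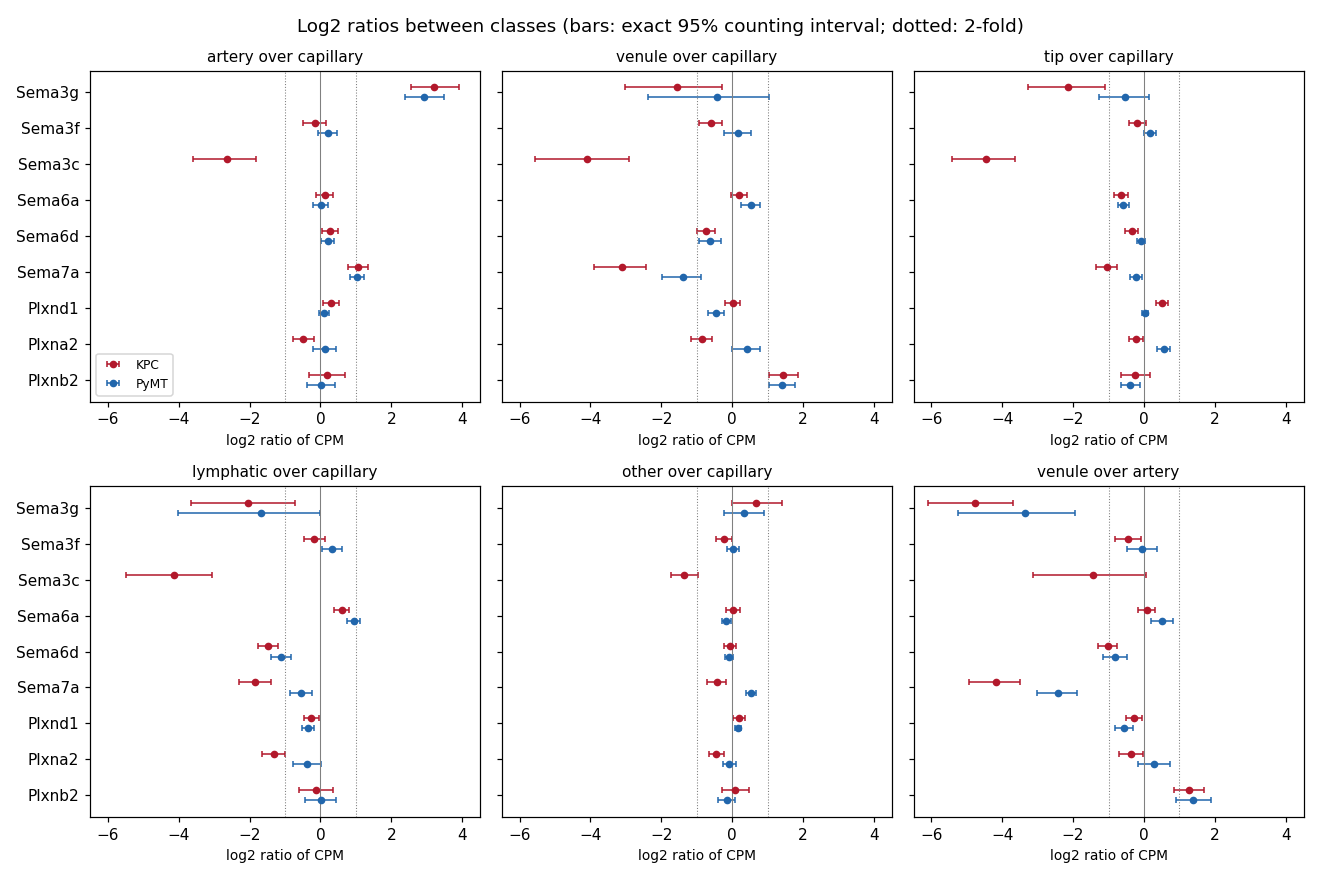
Log2 ratio of CPM (x axis) for each gene (y axis) in 6 comparisons of classes, in KPC (red) and PyMT (blue), with exact 95% intervals as bars and dotted lines at 2-fold. Sema3g and Sema7a lie beyond the upper line for artery over capillary and beyond the lower line for venule over artery, where Plxnb2 lies beyond the upper line, and Sema3c is not drawn for PyMT.

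These counts can be set beside those of all genes, but the 9 genes were chosen with earlier results of these data known. The comparison is therefore a description and not a result about the family. Of the 9 genes, 8 had enough UMIs in each comparison, and Sema3c did not. For artery over capillary, 2 of 8 were past the fold upward (Sema3g and Sema7a) and none downward, where 1.69% of 9855 genes were higher and 0.578% lower. For venule over capillary, Plxnb2 was higher and Sema7a lower, where 1.63% of 9937 genes were higher and 1.01% lower. For venule over artery, Plxnb2 was higher and Sema3g and Sema7a were lower, where 1.98% of 9383 genes were higher and 2.7% lower. Sema3g had 7 venule and 151 artery UMIs in KPC, and 4 and 89 in PyMT, so it met the minimum through the artery class. Sema7a had 19 venule UMIs in KPC and 31 in PyMT. In KPC it thus met the minimum through the capillary class in the first comparison and the artery class in the second. For tip over capillary, 0 of 8 were past the fold in either direction, where 0.338% of 10641 genes were higher and 0.761% lower. For lymphatic over capillary, Sema3g and Sema6d were lower and none higher, where 6.21% of 10383 genes were higher and 3.93% lower. Sema3g had 6 lymphatic and 22 capillary UMIs in KPC, and 3 and 42 in PyMT, so it met the minimum through the capillary class. Its log2 ratio was -2.06 [-3.65, -0.71] in KPC and -1.67 [-4.00, -0.02] in PyMT. For other over capillary, 0 of 8 were past the fold, where 2.06% of 11187 genes were higher and 0.0894% lower.

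The median log2 ratio of the 8 genes was 0.23 in KPC and 0.16 in PyMT for artery over capillary, where the median over all genes was -0.02 and 0.04. For venule over artery it was -0.41 and -0.31, against -0.04 and 0.03. For lymphatic over capillary it was -0.79 and -0.36, against 0.03 and 0.10. Venule over capillary gave -0.68 and -0.14, against -0.05 and 0.04. Tip over capillary gave -0.30 and -0.15, against -0.07 and -0.002. Other over capillary gave -0.02 and -0.03, against 0.004 and -0.003.

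The co-receptors split by vessel type. Nrp1, which also binds VEGF, was at 521 CPM in capillary, 370 in artery, 180 in venule and 43.8 CPM in lymphatic cells of KPC, and at 209, 221, 157 and 44.6 CPM in PyMT. Nrp2, the receptor partner for Sema3f and Sema3g, was at 368 CPM in lymphatic, 194 in venule, 161 in capillary and 94.3 CPM in artery cells of KPC, and at 306, 131, 76.8 and 54.3 CPM in PyMT. Artery cells, the class with most Sema3g, were thus the endothelial class with least Nrp2 in both tumors. The venule over artery log2 ratio of Nrp2 was 1.04 [0.82, 1.27] in KPC and 1.27 [0.97, 1.57] in PyMT. The lymphatic over capillary log2 ratio of Nrp1 was -3.57 [-3.82, -3.33] and -2.23 [-2.51, -1.96].

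In the wider list of 58 semaphorins, plexins, co-receptors and signaling partners, the genes past the fold besides the 9 were counted in the same way, beside the shares of all genes. That list too was chosen with earlier results of these data known. For artery over capillary, 30 of the 49 genes besides the 9 had enough UMIs, and only Met, a receptor tyrosine kinase that pairs with B-type plexins, was higher (15.0 against 5.46 CPM in KPC, 14.0 against 3.41 CPM in PyMT), with none lower, where 1.69% of all genes were higher. For venule over capillary, again of 30, Met (log2 ratio 1.002 in KPC and 1.23 in PyMT) and Mical2, an actin-oxidizing enzyme of the family that acts below plexins (1.03 and 1.35), were higher and none lower, where 1.63% of all genes were higher. For venule over artery, Nrp2 was the only one of 28 (higher), where 1.98% of all genes were higher. For tip over capillary, 0 of 32 were past the fold, where 0.338% of all genes were higher.

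For lymphatic over capillary, where 6.21% of all genes tested were higher and 3.93% lower, 6 of 32 genes were higher and 2 lower. Those higher were Sema3d, Nrp2, Met, Farp1, Mical2 and Mical3. The secreted ligand Sema3d was at 85.1 CPM in KPC and 124 CPM in PyMT lymphatic cells, with a log2 ratio to capillary of 7.05 [5.19, 10.10], on 2 capillary UMIs, and 6.19 [5.54, 6.92]. Farp1, a guanine nucleotide exchange factor, gave 1.68 and 1.51, Mical2 3.88 and 2.78, and Mical3 1.39 and 1.67. Nrp1 and the GTPase Rnd3 (-1.50 and -1.36) were lower. For other over capillary, of 34 genes, Sema3d was higher (2.71 and 1.75), where 2.06% of all genes were higher. Lymphatic markers summed to 813 CPM in KPC and 590 CPM in PyMT other cells, against 117 and 132 CPM in capillary cells. The part of lymphatic cells below their gate in this Sema3d ratio was not tested.

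Genes with the most similar profile over the 6 endothelial classes were ranked by the lower of the 2 libraries' Pearson r of log2(CPM + 1), among 9476 genes with at least 200 UMIs per library. The 6 points share a library and its depth, and the genes named were picked as the highest of all ranked, so r is a description only. For Sema3f, whose classes differed by no more than 1.52-fold, r rests on small differences. For Sema3g these were Mn1 (lower r 0.97), Glul (0.96) and Asah1 (0.96). For Sema7a they were Plk2 (0.98), Hey1 (0.97) and Tubb2a (0.97). Hey1, a Notch target used above as an artery marker, was at 280 and 253 CPM in artery cells and 9.56 and 12.7 CPM in venule cells. For Plxnb2 they were Isyna1 (0.96), Fnbp1l (0.96) and Rasa4 (0.93), and Isyna1 was at 93.9 and 67.3 CPM in venule cells. For Sema6d they were Fyn (0.99), Nrarp (0.98) and Sparcl1 (0.98). For Sema6a they were Psenen (0.96), Lrp6 (0.96) and Usp33 (0.96), and for Sema3f Kpna4 (0.95), Tspan9 (0.88) and Rragc (0.86). For Plxnd1 they were Lxn (0.95), Ccdc126 (0.95) and Mars2 (0.95), and for Plxna2 Fez2 (0.93), Nid1 (0.92) and Pigm (0.90). Among the 9 genes themselves, Sema3g and Sema7a gave r of 0.82 in KPC and 0.75 in PyMT, and Sema6a and Plxnd1 gave -0.88 and -0.81.

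**Figure D4:**
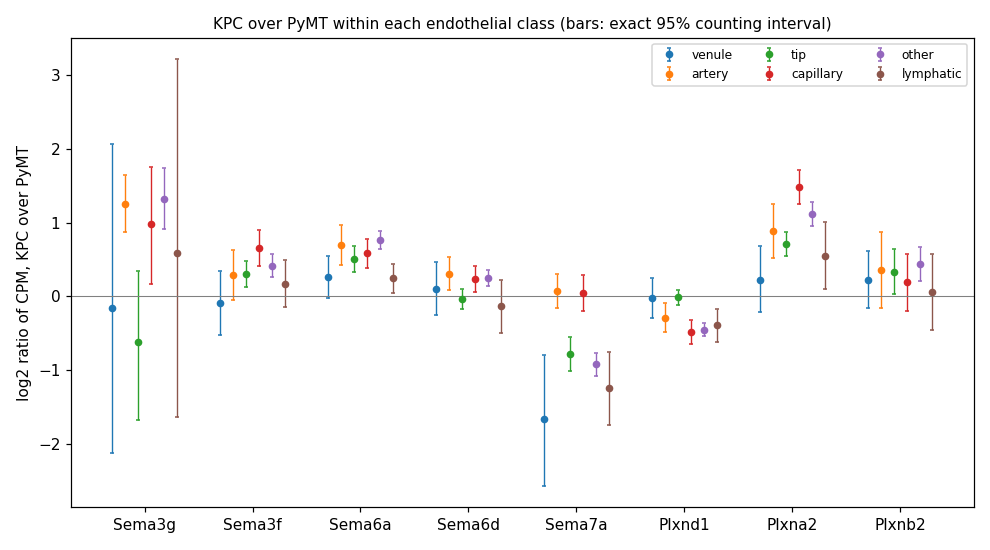
Log2 ratio of KPC over PyMT CPM (y axis) for 8 of the genes (x axis), with exact 95% intervals as bars. Colors mark the 6 endothelial classes: venule blue, artery orange, tip green, capillary red, other purple and lymphatic brown. The ratios of Plxna2 and Sema6a lie above 0 in all 6 classes, with intervals that include 0 in venule cells. Sema7a lies near 0 in artery and capillary cells and below 0 in the other 4.

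Classes of the same gates were then set side by side between the tumors. Organ, tumor line, library and depth cannot be told apart here. The capillary and tip classes were also unlike in marker content. Capillary markers summed to 13118 CPM in the KPC capillary class and 4824 CPM in the PyMT one. Tip markers summed to 1596 CPM in the KPC and 1014 CPM in the PyMT tip class. The part of this in the ratios below was not tested. Plxna2 was higher in KPC in 5 of 6 classes by intervals that exclude 0, from a log2 ratio of 1.49 [1.26, 1.72] in capillary and 1.11 [0.95, 1.28] in other cells to 0.55 [0.11, 1.003] in lymphatic cells, and it was 0.23 [-0.21, 0.68] in venule cells. In the KPC capillary class 11.7% of all genes tested were at least 2-fold higher and 5.11% lower than in the PyMT one. Sema7a was alike in artery cells (0.07 [-0.16, 0.30]) and capillary cells (0.05 [-0.20, 0.29]). It was lower in KPC in venule (-1.67 [-2.58, -0.80]), lymphatic (-1.24 [-1.74, -0.76]), other (-0.92 [-1.08, -0.77]) and tip cells (-0.78 [-1.01, -0.56]). The ratio in the tumor class was -4.38 [-4.93, -3.87], between classes of unlike marker content. At the tumor class's ratio of Sema7a to Krt8, the Krt8 of PyMT other cells would go with 24.1 of their 1553 Sema7a UMIs. Krt8 is a gene of the tumor gate, which keeps it low in other cells, so this figure can be too low. Carried RNA was not tested.

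Sema3g was higher in KPC artery cells, by 1.25 [0.87, 1.65] on the log2 scale. Sema6a lay between 0.24 and 0.77 in the 6 classes, with an interval that includes 0 in venule cells (0.26 [-0.03, 0.55]). Plxnd1 was lower in KPC capillary (-0.49), other (-0.45), lymphatic (-0.39) and artery cells (-0.29), and close to 0 in tip (-0.01) and venule cells (-0.02). Plxnb2 in venule cells, at 0.22 [-0.16, 0.61], was not separable between the tumors at this depth. Nrp1 was higher in KPC capillary cells, by 1.32, and Nrp2 in KPC tip and capillary cells, by 1.16 and 1.07.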

How the data were processed

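Per the labels and the methods of the study, tumors were digested, sorted for endothelial cells and run on droplet 3' chemistry (kit v2 in one place of the study's text, v3 in another), sequenced on a NextSeq500, and processed with Cell Ranger 3.0 (3.0.2 in the file header) against mm10. The authors deposited 1 filtered matrix of UMI counts per library, not normalized. The strand setting of the counting is not given in the sources used here, and no exon of the 9 genes overlapped another counted gene in GENCODE annotation.

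Cells were kept from 500 detected genes upward where mitochondrial genes made up less than 10% of UMIs, placed in 9 classes by the gates given above, and their counts summed per class and scaled to CPM. No doublet caller was run, and cells of several gates or of the highest depth were left out as alternatives. Intervals are exact Poisson or, for ratios, exact conditional binomial, and shares are Clopper-Pearson, all at 95%. They cover counting error only. Nothing was tested, since each tumor model had 1 library. Shares were also computed after thinning to 2000 UMIs per cell, with cells of fewer UMIs left out. Genes named were the 9, Nrp1 and Nrp2, those of the 58-gene list past the fold, and the 3 most alike per gene. Likeness could not be given for Sema3c, whose PyMT counts were under the minimum. The genes and lists were chosen with earlier results of these data known. The alternatives were stricter cell filters, doubled gate thresholds, cells of 1 gate or none, cells thinned or weighted equally, the deepest or cycling cells left out, a UMI of Pecam1 or Cdh5 required, median-of-ratios scaling, and no minimum of UMIs. Python 3.11.15, numpy 2.4.6, scipy 1.17.1, pandas 2.3.3 and matplotlib 3.10.9 were used, and the interval code was checked on simulated data. Promoter sequences are from RefSeq (GRCm38.p6).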

Additional observations from a re-analysis of the deposited data

Results flagged for a closer look

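For 2 genes, the libraries gave opposite directions for the same comparison. The log2 ratio of Plxna2 for tip over capillary was -0.23 in KPC and 0.55 in PyMT. The log2 ratio of Sema7a for other over capillary was -0.44 in KPC and 0.53 in PyMT. The difference between the tumors was not tested, since each has 1 library. The capillary class is the denominator of both. Among the 5 blood endothelial classes, it had the highest level for 5 of 6 capillary markers in KPC and 1 of 6 in PyMT. The part of this in the opposite directions was not tested.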

How the results depend on the processing

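Of 908 recomputed log2 ratios, 847 stayed inside the interval of the reported value, 61 moved outside it, 54 changed sign, and none that was past the fold did so. The count past the fold for artery over capillary went from 2 to 1, with Sema3g left, when cells needed 1000 genes and under 5% mitochondrial UMIs, when class thresholds were doubled and when cycling cells were left out. For tip over capillary it went from 0 to 1 (Sema3g lower) with cells weighted equally. For lymphatic over capillary it went from 2 to 1 (Sema6d) with thresholds doubled or the deepest 8% of cells left out, and to 0 with cells thinned to 2000 UMIs. The artery over capillary log2 ratio of Sema3g ranged from 2.60 to 4.43 in KPC and from 2.74 to 3.95 in PyMT, and the venule over capillary ratio of Plxnb2 from 1.14 to 1.77 and from 1.30 to 1.60. The cause of these moves was not tested, except that doubling, thinning and leaving out cells leave fewer UMIs. No paired analysis was possible because each tumor model has 1 library and nothing was tested. Low counts limit Sema3g outside artery cells and Sema3c in PyMT.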

Other observations

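Other semaphorins of the 58-gene list had levels in classes the comparisons above do not centre on. Sema3a, a secreted ligand of Nrp1, was at 67.9 CPM in KPC and 48.0 CPM in PyMT lymphatic cells, against 7.06 and 26.2 CPM in capillary cells. Its lymphatic over capillary log2 ratio was 3.26 [2.63, 3.97] in KPC and 0.87 [0.56, 1.17] in PyMT, short of 2-fold in the latter. Sema3e, the ligand of Plxnd1, was at 27.0 CPM in the KPC and 14.6 CPM in the PyMT tumor class. Sema4b, a membrane-bound ligand, was at 20.3 and 10.9 CPM in the same class. That class is defined by Krt8 and Krt18 UMIs, and its epithelial marker list summed to 4464 CPM in KPC but 43.1 CPM in PyMT.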
